A study of Homo sapiens with 12 samples.

Results

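Open chromatin that lies between genes and was found in every library was examined in the MIAPaCa2 line, grown from a human pancreatic carcinoma. Peaks of all 12 ATAC-seq lists that overlapped by at least 1 bp were merged on chromosomes 1 to 22 and X, which gave 178040 regions. A region was kept if all 12 libraries had a peak in it, if it was narrower than 2000 bp, if it overlapped no RefSeq gene span, and if it lay more than 5 kb from any gene start or end. The regions were thus chosen by measured peak calls, in all 12 libraries and by merged width, and by their position, and their presence is not tested. The covered bases compared below come from the same peaks, and the width limit, which left out 82 regions, caps them. These criteria left 3253 regions, 1.83% of all merged regions and part of the 24148 regions called in 12 libraries. They are called intergenic constitutive regions here.

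ATAC-seq reads out where the Tn5 transposase can insert adapters, so a peak marks DNA that is less shielded by nucleosomes. Open sites far from gene starts are often enhancers, insulators bound by CTCF or the promoters of unannotated transcripts, and some are repeats. The long gene-free intervals of human chromosomes usually span the centromeres, which are built of tandem satellite repeats whose copies are nearly identical.

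The 4 groups were parental cells left untreated, parental cells given an inhibitor of lactate dehydrogenase A (LDHA), inhibitor-resistant cells left untreated and inhibitor-resistant cells given the inhibitor, with 3 libraries each. The inhibitor was oxamate, a competitive analogue of pyruvate, and untreated cells received its buffer alone. The resistant cells were a polyclonal population derived from the same line by continued growth in oxamate, so they stand for 1 selection and not for several independent ones. Each group is compared through the bases that the peaks of a library covered inside these regions, given in kb or bp. The p-values measure the spread between libraries of a group, since nothing in the labels says whether the libraries came from separate cultures.

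The lists held 46401 to 63259 peaks, covered 13.8 to 33.7 Mb and gave a relative depth between 1.00 and 2.77, with the shallowest library set to 1. The smallest peak of a list was 67 to 87 bp wide in parental libraries and 94 to 124 bp wide in resistant ones. All libraries had peaks at gene ends of KRT8, KRT18 and VIM, the keratins and vimentin that this line is known to express, none had a peak at CDKN2A or MTAP, a locus the line is known to have lost, and ALB and PTPRC had none at their ends.

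The regions were narrow and weakly shared in their extent. Their median width was 679 bp (quartiles 514 and 958 bp, range 124 to 1991 bp), and together they spanned 2.50 Mb. The bases that all 12 libraries covered made up 27.5% of that width, with a median of 151 bp per region. In 86 regions, 2.64% of the set, every library had a peak but no base was common to all 12. At the edges of the rule, the widest regions kept measured 1989 to 1991 bp and the narrowest left out 2028 to 2035 bp, while the closest kept to a gene lay 5011 to 5018 bp away and the farthest left out 4971 to 4985 bp away.

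Regions between genes were a smaller share of the regions called in 12 libraries than of those called in fewer. Regions that met the same width and distance criteria made up 26.3% of all regions called in 1 library, between 25.8 and 28.2% of those called in 2 to 7 libraries, 21.4% of those called in 11 libraries and 13.5% of those called in 12. For 1, 11 and 12 libraries the counts were 27829, 932 and 3253 regions. Since the number of libraries chose the set, these shares are a description and were not tested.

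The strength of a region was taken as the percentile of its largest -log10 q within the list of each library, so 100 is the strongest peak of a list. The median over the regions was 69.2 (quartiles 59.1 and 80.4). It was 69.3 in 4559 constitutive regions inside gene bodies and 85.9 in 9312 constitutive regions within 1 kb of an end of a coding gene, both under the same width limit. A peak with -log10 q of at least 3 was present in all 12 libraries in 51.3% of the intergenic regions, in 50.4% of the gene-body regions and in 78.4% of the coding gene-end regions. By strength the intergenic regions therefore sat beside the gene-body regions and below the gene ends.

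The upper tail differed from that pattern. Regions at or above the 99th percentile made up 2.12% of the intergenic set (69 regions), 0.877% of the gene-body set and 2.31% of the gene-end set. Widths of 500 bp or less were found in 56.5% of these 69 regions, against 22.5% of all intergenic regions. The 102 regions of at most 250 bp had a median percentile of 87.2, and those of 251 to 500 bp had one of 68.4.

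The strongest region of all lay at chr3:93470361-93470795 (GRCh38), 372969 bp from the pseudogene RNU6-488P and 402256 bp from PROS1, which encodes the anticoagulant protein S. Its fold over background lay between 25.2 and 32.2 in the 12 libraries, and its peak covered 434 or 435 bp in each of them. The next strongest was chr15:53239120-53239269, 17466 bp from the non-coding gene LOC107983981, and the same 150 bp were covered in all 12 libraries. Its fold was 41.6 to 49.1 in parental libraries and 31.5 to 38.3 in resistant ones. The third, chr6:102691950-102692190, covered the same 241 bp in every library, with a fold of 40.8 to 48.7 in parental libraries and 31.1 to 36.0 in resistant ones. In both of these regions all parental libraries lay above all resistant ones, a difference that was not tested because fold is scaled within a list. Of the 10 strongest regions, 6 were narrower than 250 bp and 1 lay over 500 kb from a gene.

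Most intergenic regions were close to genes, but a distinct set was remote. The median distance to the nearest gene was 16091 bp (quartiles 8734 and 42036 bp). The nearest gene was protein-coding for 1123 regions, a long non-coding RNA for 996 and a pseudogene for 743. Of all these regions 421, 12.9% of the set, lay over 500 kb from any gene, and their median distance was 1.63 Mb. This boundary was chosen after the distances and covered bases had been seen.

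The 421 remote regions fell into only 14 gene-free intervals of 2.24 to 21.7 Mb. The interval on chromosome 1 between the transcribed pseudogene EMBP1 and the non-coding gene LOC101929814 held 270 of them, at chr1:122505726-125183128. Chromosome 13 held 56, chromosome 10 held 33, chromosome 7 held 20 and chromosome 17 held 16, each in 1 interval. The farthest region of all, chr1:125181797-125183128, lay 3609909 bp from EMBP1 and ranked at a median percentile of 99.8. Chromosome 1 held 18.0% of the intergenic set, 11.2% of the regions within 500 kb of a gene and 10.7% of the gene-body regions. Chromosome 13 held 3.46% of the regions within 500 kb and 1.29% of the gene-body regions.

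**Figure D1:**
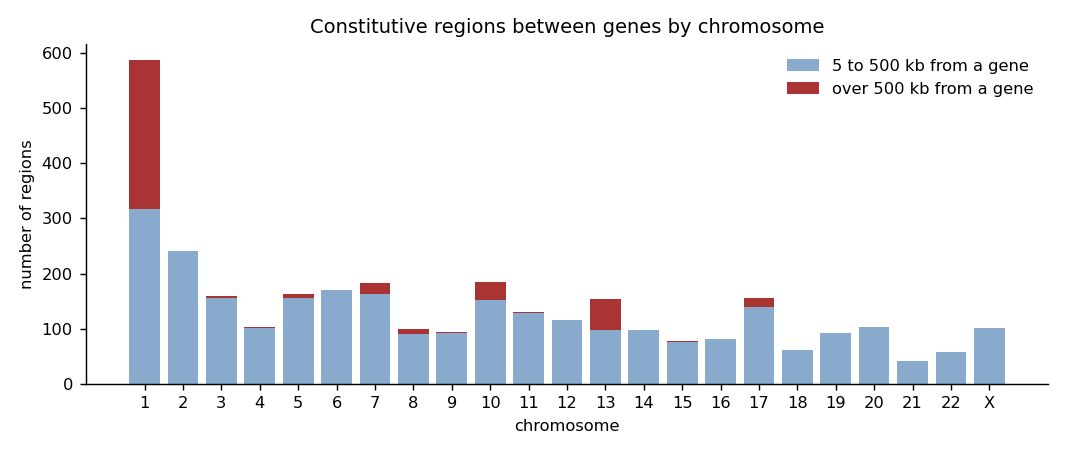
Number of intergenic constitutive regions (vertical axis) on each chromosome (horizontal axis), stacked by distance from the nearest gene. Chromosome 1 holds 270 of the 421 regions over 500 kb from a gene, and chromosome 13 holds 56.

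Neighbouring regions were joined where the gap between them was at most 20 kb. This gave 133 clusters of at least 3 regions, which held 735 regions, while 1934 regions had no neighbour so close. A remote region was part of 28 of these clusters. The 4 largest all lay in the gene-free interval of chromosome 1. The largest held 127 regions at chr1:123953373-124784518, 1 every 6.54 kb. The next had 29 regions at chr1:122505726-122759551, 23 at chr1:122888531-123063066 and 20 at chr1:123097692-123264695.

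In the cluster of 127, covered bases averaged 43.8 ± 2.37 kb (untreated) and 46.8 ± 5.86 kb (oxamate) in parental libraries, and 50.3 ± 6.78 kb (untreated) and 45.3 ± 2.19 kb (oxamate) in resistant ones (SD, n = 3 each). The group means differed by about as much as the libraries of 1 group, and the groups overlapped.

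The fifth cluster stood at the other edge of the same interval, 31990 bp from LOC101929814, and held 16 regions at chr1:143184623-143267528. Its nearest coding gene was H3-7, a histone H3 gene. Its regions were strong, with a median percentile of 94.1 and a median width of 1044.5 bp. Its peaks covered 14.5, 15.4 and 14.9 kb in parental libraries with oxamate and 14.0, 11.4 and 13.5 kb in those without. In resistant libraries they covered 11.2, 12.2 and 11.9 kb with oxamate and 10.7, 12.6 and 10.3 kb without. Treated parental libraries were above all others here. A cluster of 15 regions at chr4:49091594-49154967, chosen for display after its values were seen, had a median percentile of 97.0 and lay beside CWH43, a gene of lipid anchor remodelling.

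Group means of covered bases differed over the whole set, though no test of them passed after adjustment. In untreated parental libraries the peaks covered 1556, 1580 and 1336 kb of these regions, and in treated parental libraries 1031, 1260 and 1224 kb. Untreated resistant libraries covered 1950, 1617 and 1686 kb, and treated resistant libraries covered 1801, 1459 and 1700 kb. All 3 treated parental libraries lay below every other library. The 6 resistant libraries overlapped only in part with the untreated parental ones.

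Resistant libraries covered 371 kb more than parental ones (1702 against 1331 kb), with a two-sided exact permutation p of 0.005, the smallest that 400 assignments allow, and an adjusted p of 0.065 over 13 tests. Oxamate changed covered bases by -319 kb in parental cells and by -97.4 kb in resistant cells, with exact permutation p-values of 0.1 and 0.6, where 3 libraries against 3 cannot go below 0.1. The interaction of both factors was 222 kb (exact permutation p = 0.325, adjusted p = 0.423). No test of covered bases passed an adjusted 0.05. The phenotype difference moved with the smallest peak width of a list, given above, and divided by that width it turned to -1065 (exact permutation p = 0.06). As a share of all bases covered by a list it was -0.399 percentage points (exact permutation p = 0.11).

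**Figure D2:**
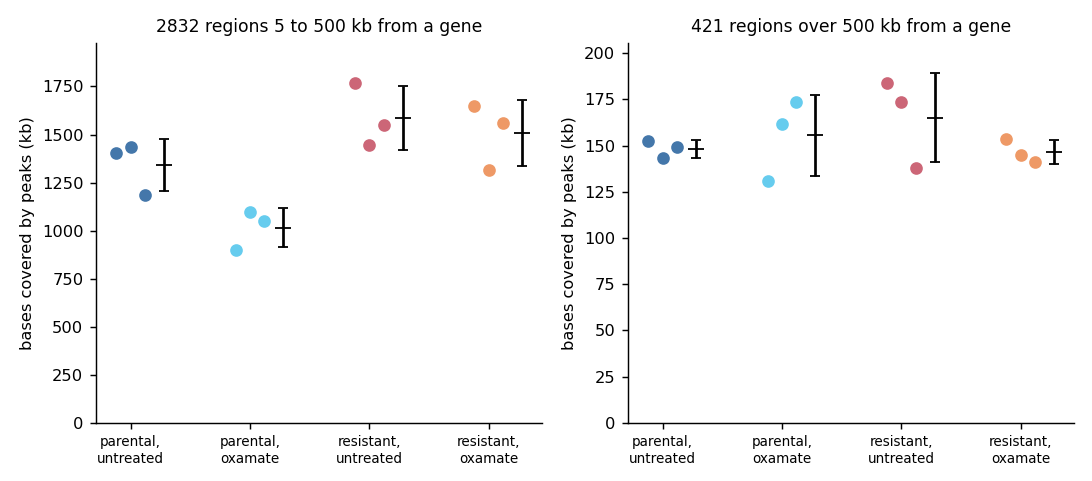
Bases covered by peaks (kb, vertical axes from 0) in each of the 12 libraries (points), with the mean and SD of each group of 3 (black bars), for regions 5 to 500 kb from a gene (left) and over 500 kb from a gene (right). On the left treated parental libraries sit at 899 to 1098 kb, under all others, and on the right they span 131 to 174 kb, with 1 library below all others and the other two among them.

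Comparison with other constitutive regions tested whether the intergenic set moved apart from them. The log2 ratio of its covered bases to those of the gene-body regions lay between -0.63 and -0.45 in all libraries and was 0.08 lower in resistant than in parental cells (difference -0.08, exact permutation p = 0.02, adjusted p = 0.13). Against the coding gene-end regions the difference was 0.00138 (exact permutation p = 0.955, adjusted p = 0.955). The treatment differences were 0.05 and -0.01 (exact permutation p = 0.1 and 0.725). The median percentile was 71.7 in parental and 68.3 in resistant libraries, a difference of -3.48 (exact permutation p = 0.08, adjusted p = 0.163). None of these passed after adjustment.

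Covered bases differed with distance from genes. In regions 5 to 10 kb from a gene, treated parental libraries covered 0.734 times the bases of untreated parental ones, and resistant libraries covered 1.32 times the bases of parental ones. The ratios stayed near these values up to 50 kb, at 0.747 and 1.34 for 10 to 20 kb and 0.751 and 1.34 for 20 to 50 kb. At 50 to 100 kb they were 0.801 and 1.26. At 100 to 500 kb they were 0.970 and 1.03, and over 500 kb they were 1.05 and 1.03. The treated against untreated ratio in resistant cells lay between 0.888 and 0.962 in all 6 distance classes.

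**Figure D3:**
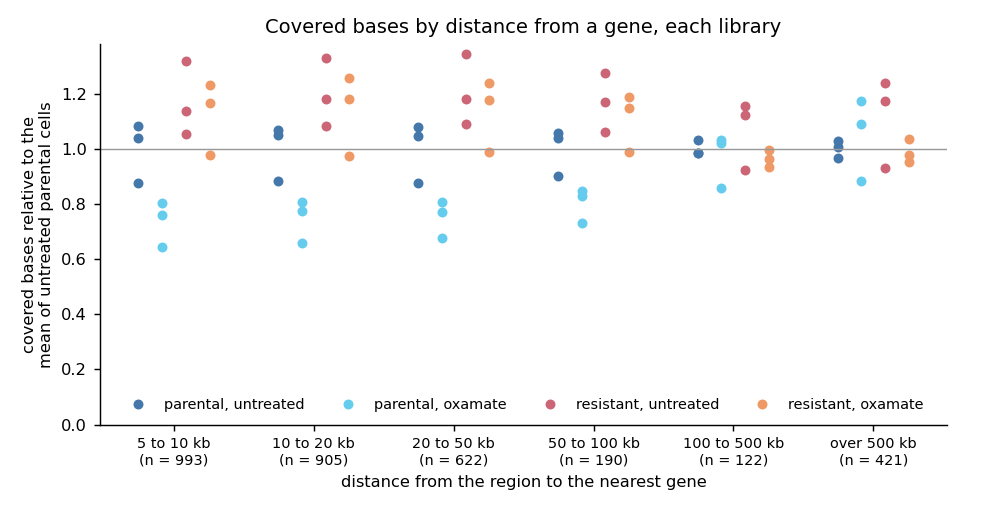
Covered bases of each library (points, coloured by group) relative to the mean of the 3 untreated parental libraries (vertical axis, from 0), by distance of the regions from the nearest gene (horizontal axis, number of regions in brackets). Treated parental libraries all lie under the untreated parental ones in the classes up to 100 kb, and at larger distances they no longer all do so.

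The remote regions covered 153, 143 and 149 kb (untreated) and 131, 162 and 174 kb (oxamate) in parental libraries, and 184, 174 and 138 kb (untreated) and 154, 145 and 141 kb (oxamate) in resistant ones. These ranges overlapped in all pairs of groups. The log2 ratio of remote to nearer regions averaged -3.17 ± 0.168 (untreated) and -2.71 ± 0.102 (oxamate) in parental libraries, and -3.27 ± 0.218 (untreated) and -3.36 ± 0.151 (oxamate) in resistant ones (SD, n = 3 each), and treated parental libraries were above all others. The phenotype difference of this ratio was -0.37 with an exact permutation p of 0.03, and the interaction was -0.55 with an exact permutation p of 0.045. Both had an adjusted p of 0.158 over 7 tests. The change of the ratio with oxamate in parental cells was 0.46 (exact permutation p = 0.1, the smallest possible). None of the 3 passed after adjustment, and these 7 tests were added after the distance pattern had been seen.

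Strength followed the same order in the remote regions. Their median percentile was 88.9 ± 5.21 (oxamate) and 74.8 ± 7.97 (untreated) in parental libraries, and 65.0 ± 12.2 (untreated) and 57.0 ± 7.74 (oxamate) in resistant ones (SD, n = 3 each). For the regions within 500 kb the 4 means were 68.1, 72.7, 69.7 and 68.1. Relative depth had the same order as the remote regions, averaging 2.27, 1.55, 1.43 and 1.08 in those groups, and its part in the difference was not tested.

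Single regions were then compared by limma on log2 covered bases, with each library centred on its median region and p-values adjusted over all 24148 regions called in 12 libraries. A call is relative to the typical region of a library. At chr13:90218073-90218287, for example, all 12 libraries covered 215 bp, and the phenotype difference was 0 without centring and -0.44 with it. Without centring, the median region was 0.39 log2 units wider in resistant than in parental cells, 0.39 narrower in treated than in untreated parental cells (-0.39) and 0.06 narrower (-0.06) with treatment of resistant cells.

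Between resistant and parental cells, 63 of the 3253 intergenic regions were called higher (1.94%, against 2.81% of all regions) and 163 were called lower (5.01%, against 4.78% of all regions). The shares over the whole set were thus near the background. Of the remote regions 50 of 421 were called lower (11.9%) and 1 higher, and of the regions within 500 kb 113 of 2832 were called lower (3.99%) and 62 higher. The median centred log2 difference was -0.45 in remote regions, 0.01 in nearer intergenic regions, 0.02 in gene-body regions, -0.10 in coding gene-end regions and -0.05 in all regions. Before centring the remote regions together covered 1.03 times as many bases in resistant as in parental libraries, so their lower calls are relative to the typical region. Among the 163 regions called lower, 130 also had a negative difference without centring, and 21 passed without it, of which 8 were remote. Of the 50 remote regions called lower, 48 had a negative difference without centring, and the median was -0.29. Without centring 659 intergenic regions were called higher. All 63 regions called higher were also called without centring.

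The number of calls depended on single libraries. Without replicate 1 of untreated resistant cells 11 regions were called higher and 10 lower, without replicate 3 of that group 16 and 13, without replicate 1 of treated resistant cells 14 and 19, and without replicate 3 of that group 16 and 13. Without replicate 3 of untreated parental cells they were 20 and 11, without replicate 1 of that group 36 and 41, without replicate 2 of untreated resistant cells 41 and 101, and without replicate 1 of treated parental cells 49 and 61. The other 4 fits gave 55 to 85 higher and 109 to 194 lower calls, with 85 higher and 143 lower without replicate 2 of treated parental cells and 55 and 194 without replicate 2 of treated resistant cells. Over all 12 fits the remote regions called lower numbered 2 to 66.

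**Figure D4:**
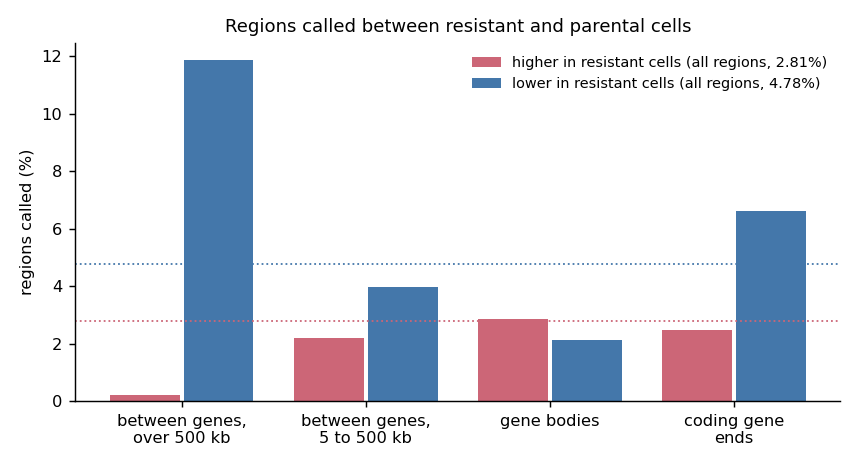
Share of regions (%, vertical axis from 0) called higher or lower in resistant than in parental cells by limma on centred log2 covered bases, in 4 classes of constitutive regions (horizontal axis). Dotted lines mark the shares over all 24148 regions, and the remote regions reach 11.9% for lower calls and 0.238% for higher calls. A call is relative to the median region of a library, and of the 50 remote lower calls 8 were also made without centring.

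Among the regions called higher, the smallest adjusted p-values belonged to 3 regions that were also called in all 12 fits with 1 library left out. At chr7:106736571-106737491, 75413 bp from CCDC71L, parental libraries covered 188 to 402 bp and resistant libraries 824 to 915 bp, without overlap (log2 difference 1.13 ± 0.15 SE, limma adjusted p = 0.00413). At chr4:74624340-74625788, 118971 bp from BTC, which encodes the growth factor betacellulin, parental libraries covered 235 to 635 bp and resistant libraries 989 to 1348 bp, again without overlap (1.19 ± 0.18, limma adjusted p = 0.00921). The third, near IYD, is described with the response to oxamate. None of the 3 was called on the authors' fold. At the region toward BTC strength went the other way from covered bases. Its mean percentiles were 78.7 (untreated) and 80.8 (oxamate) in parental libraries, and 61.9 and 68.1 in resistant ones. At the region toward CCDC71L they were 77.7 and 65.1 in parental libraries and 69.6 and 68.6 in resistant ones.

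Of the 3 regions with the smallest adjusted p among those called lower, 1 lay at chr3:5021601-5022238, 36278 bp from BHLHE40, a transcriptional repressor of the circadian clock. Its peaks covered 487, 477 and 436 bp (untreated) and 233, 291 and 428 bp (oxamate) in parental libraries, and 233, 244 and 195 bp (untreated) and 257, 215 and 234 bp (oxamate) in resistant ones (log2 difference -1.17 ± 0.17, limma adjusted p = 0.00829). The lowest parental library overlapped the resistant range, and the untreated groups did not overlap. The region near BHLHE40 was also called lower on the authors' fold and in all 12 fits with 1 library left out. The other two belonged to the cluster of 16 on chromosome 1. In that cluster 11 of 16 regions were called lower in resistant cells, against 4.78% of all regions. Without centring all 11 differences were negative, from -0.95 to -0.02, and 3 of them were called. Many calls were also found elsewhere. For phenotype in either direction, 11 of 21 regions nearest to the coding gene CWH43 and 13 of 39 nearest to ZNF33B were called. The counts were 33 of 275 for LINC02798, 13 of 86 for TUBA3C, 5 of 22 for WSB1 and 0 of 23 for ZNF716.

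At chr1:143245434-143245888, inside this cluster, treated parental libraries covered 455, 439 and 426 bp, and all 9 other libraries covered 135 to 150 bp. In covered bases before centring, only the treated parental group therefore stood apart. The phenotype difference was -0.84 log2 units without centring and -1.29 ± 0.17 with it (limma adjusted p = 0.00409). That call was also made on the authors' fold. Mean strength percentiles were 97.4 (untreated) and 99.6 (oxamate) in parental libraries, and 87.7 (untreated) and 85.4 (oxamate) in resistant ones. The region was also called higher with oxamate in parental cells (log2 difference 2.05 ± 0.23, limma adjusted p = 0.00414). At chr1:143184623-143186415 treated parental libraries covered 1620 to 1791 bp, and resistant libraries 804 to 1120 bp (log2 difference for phenotype -1.15 ± 0.18, limma adjusted p = 0.0095). Untreated parental libraries covered 1618, 824 and 1215 bp, and the one at 824 bp lay within the resistant range. This call was not made on the authors' fold.

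For oxamate in parental cells, 3 intergenic regions were called higher (0.0922%, against 0.0373% of all regions) and 11 were called lower (0.338%, against 0.526% of all regions). None of these 14 was remote. The 11 lower regions were also called without centring, where their differences ranged from -3.22 to -1.47. Leaving out 1 library gave 5 to 24 lower and 1 to 5 higher calls, with the most lower calls without replicate 2 or 3 of treated parental cells and the fewest without replicate 1 or 2 of untreated parental cells.

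The largest of these differences was at chr6:150418111-150419635, 12142 bp from IYD, which encodes an enzyme that recovers iodide in the thyroid. Untreated parental libraries covered 974, 1313 and 616 bp and treated parental libraries 77, 129 and 98 bp. Untreated resistant libraries covered 1207, 1074 and 966 bp and treated resistant libraries 1145, 906 and 1125 bp. The treated parental libraries stood apart from the other 9, which overlapped each other. The log2 difference with oxamate in parental cells was -2.77 ± 0.21 (limma adjusted p = 0.000243), and that in resistant cells was 0.06. It was the 1 intergenic region called for the interaction (0.0307%, against 0.0248% of all regions), which was 2.82 ± 0.30 (limma adjusted p = 0.0103). That call was kept in 6 of 12 fits with 1 library left out and was not made on the authors' fold. The phenotype difference was 1.37 ± 0.15 (limma adjusted p = 0.00172).

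At chr7:81299140-81300778, 376751 bp from SEMA3C, a secreted semaphorin, untreated parental libraries covered 1229, 1080 and 940 bp and treated ones 260, 267 and 292 bp (log2 difference -1.53 ± 0.21, limma adjusted p = 0.00844). Resistant libraries covered 704 to 1639 bp there, all above the treated parental ones. At chr9:135992589-135993467, 13070 bp from NACC2, a BTB domain repressor, untreated parental libraries covered 610, 643 and 674 bp and treated ones 108, 203 and 101 bp (-1.84 ± 0.25, limma adjusted p = 0.00909). Resistant libraries covered 512 to 763 bp. The oxamate calls of the regions near IYD, SEMA3C and NACC2 were made in each of the 12 fits with 1 library left out. Strength percentiles of untreated and treated parental libraries averaged 50.8 and 45.4 near IYD, 82.7 and 85.6 near SEMA3C, and 53.8 and 47.0 near NACC2. In untreated and treated resistant libraries they averaged 41.5 and 36.0, 74.0 and 69.6, and 60.2 and 50.7 at the same regions. Near SEMA3C strength thus did not fall with oxamate. The smallest peaks of treated parental lists were 67 to 81 bp wide, near the lowest widths covered at IYD. On the authors' fold 0 intergenic regions were called lower with oxamate in parental cells, so these 3 calls were lost there, with 209 intergenic regions lower at an unadjusted p under 0.05.

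**Figure D5:**
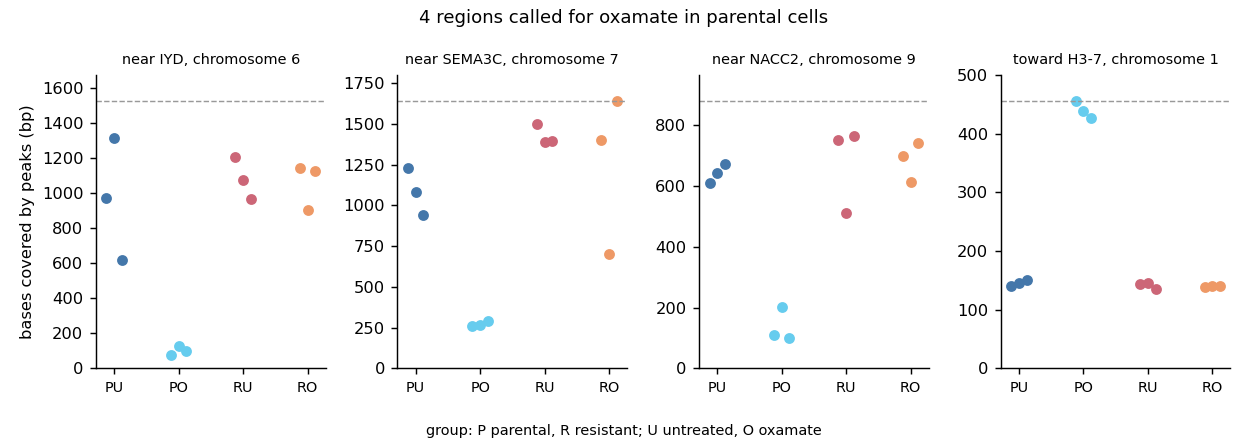
Bases covered by peaks (bp, vertical axes from 0) in each library (points) at 4 regions called for oxamate in parental cells, by group (P parental, R resistant, U untreated, O oxamate); dashed lines mark the width of the region. In the regions near IYD, SEMA3C and NACC2 the treated parental libraries are lowest, and at the region toward H3-7 they are highest at 426 to 455 bp.

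The other two regions called higher with oxamate in parental cells were chr2:48419972-48421193, 19573 bp from PPP1R21, and chr18:50507101-50507622, 48233 bp from the pseudogene RPLP0P11 and 51990 bp from MAPK4, an atypical MAP kinase gene. Covered bases rose from 681 ± 125 to 881 ± 141 bp and from 164 ± 18.0 to 320 ± 77.6 bp (mean ± SD, n = 3 each, limma adjusted p = 0.0331 and 0.0464). They were called in 3 and 2 of the 12 fits with 1 library left out. Neither was called without centring, where the log2 differences were 0.38 and 0.94. Mean strength percentiles went from 91.5 to 86.7 and from 52.3 to 47.8 with oxamate in parental libraries.

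For oxamate in resistant cells no region was called in either direction, within the set or over all 24148 regions (0% of all regions, limma). At an unadjusted p under 0.05, 44 intergenic regions were higher and 57 lower, out of 267 and 335 over all regions. On the authors' fold 0 regions were called for this contrast as well, where an unadjusted p under 0.05 was found for 79 intergenic regions with a higher and 95 with a lower value.

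The flanking genes were then described. The 3253 regions had 1976 different nearest coding genes, 9.89% of the 19974 coding genes in the table, and 1518 of these genes had 1 region only. The genes with most regions bordered the long gene-free intervals. LINC02798, typed as coding in the gene table, had 275 regions, TUBA3C, a testis alpha-tubulin gene, 86, the zinc finger gene ZNF33B 39, the zinc finger gene ZNF716 23, the ubiquitin ligase gene WSB1 22, CWH43 21 and H3-7 16. NYAP2 and PLK2 had 11 regions each and GPC5, a cell-surface glypican gene, 10, and none of their regions was remote.

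Promoter windows of RefSeq (300 bases, GRCh38.p14) were matched for 15812 coding genes. A peak lay in the promoter in all 12 libraries for 54.4% of them, and for 58.8% of the 1580 matched genes nearest to an intergenic region. Promoters with a peak in 12 libraries had a median of 27 CG dinucleotides, and promoters with none had a median of 6. PLK2, which encodes a polo-like kinase induced by growth signals, and NYAP2, which encodes a neuronal adaptor of phosphoinositide 3-kinase, had the same number of intergenic constitutive regions and opposite promoter states. The promoter of PLK2 had a peak in 12 libraries and that of NYAP2 in 0. Their promoter sequences are shown for that contrast, 5′ to 3′ on the strand of the gene, with CG dinucleotides in capitals. The PLK2 window is chr5:58460037-58460336 on the minus strand and the NYAP2 window is chr2:225399460-225399759 on the plus strand.
PLK2: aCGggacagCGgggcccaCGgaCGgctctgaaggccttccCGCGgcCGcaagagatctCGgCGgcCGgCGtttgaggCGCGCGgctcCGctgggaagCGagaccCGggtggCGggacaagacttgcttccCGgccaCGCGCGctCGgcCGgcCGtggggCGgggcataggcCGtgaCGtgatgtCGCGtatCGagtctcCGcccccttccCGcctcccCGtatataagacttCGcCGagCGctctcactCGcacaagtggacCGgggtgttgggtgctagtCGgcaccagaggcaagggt
NYAP2: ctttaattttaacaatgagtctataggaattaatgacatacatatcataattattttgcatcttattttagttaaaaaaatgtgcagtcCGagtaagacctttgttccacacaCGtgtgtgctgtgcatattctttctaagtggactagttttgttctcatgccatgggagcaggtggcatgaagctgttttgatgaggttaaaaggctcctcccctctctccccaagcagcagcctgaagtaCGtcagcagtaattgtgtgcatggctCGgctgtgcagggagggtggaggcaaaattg

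The motif searched was CG, which reads the same on both strands. PLK2 had 40 in its window, as many or more as in 10.1% of all promoters, and NYAP2 had 4, as many or fewer as in 16.6%. At least 1 CG was found in 98.1% of the promoters.

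The 11 regions with PLK2 as nearest coding gene lay 7.13 to 433 kb from it, had a median percentile of 55.9 and covered 5.50 ± 1.09 kb (untreated) and 3.30 ± 0.668 kb (oxamate) in parental libraries, and 6.63 ± 1.35 kb (untreated) and 6.65 ± 1.20 kb (oxamate) in resistant ones (SD, n = 3 each). The treated parental libraries, at 2.55, 3.80 and 3.57 kb, lay below all others. Of these regions 1 was called, at chr5:58258902-58260438. Oxamate changed its covered bases in parental cells from 942 to 214 bp on average (log2 difference -1.65 ± 0.31, limma adjusted p = 0.0334). Over all regions 0.526% were called in that direction. It was also called higher in resistant cells (0.79 ± 0.22, limma adjusted p = 0.0475), against 2.81% of all regions. The 11 regions beyond NYAP2 lay 289 to 512 kb from it, had a median percentile of 67.7 and covered 5.91 ± 1.04, 4.41 ± 0.85, 8.17 ± 0.603 and 6.94 ± 1.20 kb in the same order of groups. Of these 1 was called, chr2:226114434-226115616, which was higher in resistant cells (log2 difference 0.69 ± 0.13, limma adjusted p = 0.02), against 2.81% of all regions. It had 270 to 520 bp in parental and 577 to 1183 bp in resistant libraries.

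Genes of 7 pathways were looked up among the nearest coding genes, to be read against the 9.89% of all coding genes. Of the AP-1 genes, whose products form dimeric stress-responsive transcription factors, 2 of 14 were nearest to an intergenic region, FOS with 3 regions and JUN with 2. The region at chr14:75258712-75259744, 19084 bp from FOS, ranked at the 99.1 percentile and was covered over 887 to 1001 bp in all 12 libraries. After centring it was called lower in resistant cells (log2 difference -0.41 ± 0.11, limma adjusted p = 0.0436), while the difference without centring was 0.04. Before centring its covered bases averaged 970 (untreated) and 959 bp (oxamate) in parental libraries, and 995 and 980 bp in resistant ones. Its percentiles were 97.6 to 99.2 in parental and 98.8 to 99.7 in resistant libraries. The call is therefore relative to the typical region only. Both regions on the JUN side ranked near the middle of the lists, at 49.1 and 50.4.

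Of the pancreatic lineage genes 2 of 15 were nearest to a region, SOX9, a duct and progenitor factor, with 2 regions 24827 and 144535 bp away, and ONECUT1, a hepatic and pancreatic factor, with 1. Both SOX9 regions together covered 1.23 ± 0.387, 0.857 ± 0.25, 1.99 ± 0.479 and 1.99 ± 0.481 kb in untreated parental, treated parental, untreated resistant and treated resistant libraries (SD, n = 3 each), and neither passed the test. Of the mesenchymal genes 2 of 10 were nearest to a region, TWIST2, a repressor of epithelial genes, and VIM. The VIM region, 19902 bp away, covered 401 ± 105 bp in untreated and 164 ± 86.7 bp in treated parental libraries and 557 ± 110 and 536 ± 75.0 bp in resistant ones, and was not called.

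Of the glycolysis and lactate genes 1 of 19 was nearest to a region. It was ENO1, the enolase of glycolysis, whose region 11365 bp away covered 737 ± 43.9 bp in untreated and 450 ± 80.2 bp in treated parental libraries and 608 ± 112 and 732 ± 104 bp in untreated and treated resistant ones, and was not called. LDHA, the target of oxamate, was nearest to none.

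Of the MYC and cell cycle genes 3 of 8 were nearest to a region, which were MYC with 7, its relative MYCL with 1 and CCNE1, the cyclin that opens S phase, with 2. The MYC regions lay 17.3 to 526 kb away and ranked between 43.2 and 90.5. The strongest, chr8:127595959-127596773, was not called. The region at chr8:128127302-128128358 was called lower in resistant cells (log2 difference -0.44 ± 0.10, limma adjusted p = 0.0316), with a difference of -0.00283 without centring and 607 to 1039 bp over all libraries.

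Of the Hippo pathway genes 2 of 11 were nearest to a region, TEAD1, its DNA-binding factor, with 1, and CCN1, a secreted target of that factor, with 2. Both CCN1 regions together covered 0.846 ± 0.19 kb (untreated) and 0.441 ± 0.175 kb (oxamate) in parental libraries, and 1.38 ± 0.422 kb (untreated) and 0.967 ± 0.0465 kb (oxamate) in resistant ones, and neither was called. Of the TGF-beta genes 4 of 9 were nearest to a region, which were the ligand TGFB2, the signal carriers SMAD2 and SMAD4 and the inhibitor SMAD7. The TGFB2 region at chr1:218584583-218586329, 139964 bp away, covered 101 to 648 bp in parental and 644 to 1688 bp in resistant libraries (log2 difference 1.27 ± 0.32, limma adjusted p = 0.0399), ranges that touched. No base of it was shared by all 12 libraries. The 5 regions beside SMAD2, SMAD4 and SMAD7 were not called in any contrast. Of the 30 regions beside genes of the 7 lists, 3 were called for phenotype, against 2.81% of all regions called higher and 4.78% called lower. For oxamate in parental cells 0 of the 30 were called by limma, against 0.0373 and 0.526% of all regions.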

How the data were processed

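The authors aligned ATAC-seq reads to hg38 with Bowtie2 2.1.0, discarded reads that were duplicates, mitochondrial or not uniquely placed, and ran MACS2 on read pairs for broad peaks, 1 list per library. The effective genome size and any control or blacklist are not given in the sources used here. The deposited lists give peak positions, a score derived from -log10 q, a fold over local background (a ratio) and -log10 p and q. They hold no read counts, so a count test was not run.

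Peaks off chromosomes 1 to 22 and X were left out (0.892% of 677901). Distances used the RefSeq table of GRCh38.p14 (59098 genes). Relative depth is the background pileup, recovered from fold and -log10 p, over the smallest peak width, taken as the fragment length. Absolute depth is unknown and no counting interval was made. Library values were compared by two-sided exact permutation tests within strata (400 assignments) or of 3 against 3 libraries (20 assignments, smallest p 0.1), with Benjamini-Hochberg adjustment over 13 tests. Regions were tested with limma 3.58.1 in R 4.3.3 (moderated, with a trend, significance threshold of 0.05), checked on simulated data. Python 3.11.15 was used for the rest.

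Named regions were the 10 strongest, the 5 farthest from a gene, the 5 largest clusters, up to 3 regions with the smallest adjusted p per contrast and direction, the 10 coding genes nearest to most regions, and genes of 7 lists. The regions and lists were chosen with earlier results of these data known. The sequence of the regions and motifs in it were not analysed here. Alternatives changed the peak threshold, peak width, scaling, centring, measure, distances, gene table, overlap and cluster gap, added a replicate block or left out libraries. A marker and a gene-free interval are not reported here.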

Additional observations from a re-analysis of the deposited data

Results flagged for a closer look

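The response of covered bases to oxamate was called different between resistant and parental cells in 1 intergenic constitutive region. The call came from the interaction term of limma over all 24148 regions (0.0248% of all regions were called in that direction). It was the region at chr6:150418111-150419635 beside IYD. The interaction was 2.82 ± 0.30 on the log2 scale (SE, limma adjusted p = 0.0103), from a log2 difference of -2.77 in parental and of 0.06 in resistant cells. Treated parental libraries covered 77 to 129 bp of it, and the other 9 libraries 616 to 1313 bp. The call was kept in 6 of 12 fits with 1 library left out, and without centring, with a difference of 3.19, but not on the authors' fold. The region ranked at a median percentile of 43.8, and all 12 libraries shared 34 bp of its 1525 bp. Its mean percentile fell with oxamate in both, from 50.8 to 45.4 in parental and from 41.5 to 36.0 in resistant libraries, so strength did not show the difference seen in covered bases. In the other direction 0 regions were called by limma, while 155 intergenic regions and 930 of all regions had an unadjusted p under 0.05 (130 and 1067 in the called direction). In that other direction 1 intergenic region was called without centring and 1 with -log10 q of at least 3.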

How the results depend on the processing

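The lists give no read counts, so covered bases depend on each library's peak calls and depth limits weak and narrow regions in a way that could not be measured. The number of regions was 3253 and moved to 1676 with -log10 q of at least 3, to 6051 with protein-coding genes only and to 635 where peaks had to cover 50% of a region, while leaving out a library gave 3265 to 3536.

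As a percent of all bases covered by a list, differences turned to -0.399 for phenotype, 0.393 for treatment, -0.408 for the interaction, 0.597 for treatment of parental and 0.189 for treatment of resistant cells, -0.195 for phenotype in untreated and -0.603 in treated cells. Divided by the smallest peak width, the 3 phenotype differences turned to -1065, -1931 and -198. In remote regions alone, a choice made after seeing the data, the interaction was -25.8 kb, treatment of parental cells 7.24 kb, phenotype in treated cells -8.98 kb, the values relative to coding gene ends -0.33 (phenotype) and 0.16 (treatment), and the percentile with treatment 3.07. That percentile difference was 2.00 when ranked among regions called in 12 libraries. Leaving out a library gave -171 to 1.94 kb for treatment of resistant cells, and -0.01 to 0.01 relative to coding gene ends for both phenotype (-0.0106 to 0.00901) and treatment (-0.0142 to 0.00542). The cause of these reversals was not tested.

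Counts of called regions moved as follows. For phenotype, higher calls were 659 without centring, 229 on the authors' fold and 11 to 85 with a library left out, and lower calls were 21, 344 and 10 to 194, with 100 when centred on coding gene ends. For treatment of parental cells, lower calls were 150 without centring, 0 on the fold, 18 when centred on gene ends and 5 to 24 with a library left out, and higher calls were 1 to 5. Interaction calls were 10 higher and 1 lower without centring, 0 on the fold, 2 and 1 with -log10 q of at least 3, 2 higher when centred on gene ends and 0 to 4 with a library left out.

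Over all groups, replicate numbers did not clearly pair the libraries. Deviations of same-numbered libraries correlated between -0.0868 and 0.155 (median -0.0158), and those of differently numbered ones between -0.152 and 0.118 (median 0.00438). Between untreated and treated resistant cells, same-numbered libraries correlated at 0.128, 0.155 and 0.0223, and differently numbered ones at -0.152 to 0.0542. Both resistant groups also had the same order of replicates in covered bases. Whether resistant libraries were paired was not tested. With the replicate block, phenotype calls were 31 higher and 40 lower, parental treatment calls 1 higher and 8 lower, and no adjusted call of covered bases changed.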

Other observations

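Peaks on contigs outside chromosomes 1 to 22 and X merged into 1098 regions, of which 154 were called in 12 libraries. Covered bases in these 154 averaged 129 ± 2.46 kb in untreated parental, 128 ± 14.8 kb in treated parental, 128 ± 13.6 kb in untreated resistant and 112 ± 4.95 kb in treated resistant libraries (SD, n = 3 each). These values were not tested.

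Some intergenic constitutive regions held several peaks of 1 library. The share of such regions was 4.40 to 7.47% in parental libraries and 0.738 to 3.44% in resistant ones, without overlap. In the coding gene-end regions it was 6.34 to 14.4% and 0.44 to 5.59%.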
